A study of Mus musculus with 43 samples.

Results

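Blockade of the IL-4 receptor α chain was compared with an isotype antibody in the lungs of mice exposed to house dust mite extract (HDM) for 19 weeks. The libraries were chosen by their titles: 7 carried the anti-IL4Ra plus isotype label and 7 the isotype label, out of 43 libraries in the series. Mice of the anti-IL4Ra group received dupilumab, a therapeutic antibody against human IL-4Rα, together with isotype antibody. Mice of the isotype group received the control antibody alone. All mice were females aged 8 to 12 weeks on a 129S6/C57BL/6 hybrid background. They took HDM intranasally, with 3 doses each week. In the mice used to test the antibodies, the genes for IL-4, IL-33 and the outer part of IL-4Rα carried human sequence, in both groups alike. The design text gives HDM exposures of 4, 15 or 19 weeks and the labels give 11 or 19, and it names antibody starts at day -3, week 4 and week 11 without a label that tells which start these mice had. The labels do not state that each library is a separate mouse. Each is called a mouse here by its replicate number, and the p-values measure the spread between these libraries.

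IL-4 and IL-13 are the cytokines of type 2 inflammation, and both signal through IL-4Rα, IL-4 also with the common γ chain and IL-13 with IL-13Rα1. The receptor activates the kinases JAK1, JAK3 and TYK2 and the transcription factor STAT6. In the airway this pathway drives mucus production by goblet cells, the release of eosinophil-attracting chemokines, IgE switching in B cells and the alternatively activated state of macrophages. The antibody blocks a protein, so the level of the Il4ra transcript does not check whether the blockade worked.

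Total expected counts, the deposited estimates of reads per gene, ran from 14.9 M to 21.3 M in the anti-IL4Ra mice and from 16.6 M to 21.8 M in the isotype mice. Levels are CPM, the count per M reads, on library sizes scaled by TMM, and fold changes are log2, anti-IL4Ra over isotype, with their standard error (SE). The most abundant gene ID, which has no symbol, took 4.34% to 23.4% of the counts in the anti-IL4Ra mice and 3.19% to 13.3% in the isotype mice. Markers of whole lung were present in every library: the summed CPM of 10 alveolar type 2 cell genes, which make surfactant, lay between 18590 and 47500 in the anti-IL4Ra mice and between 22020 and 36750 in the isotype mice. Of the 9 club cell genes of the airway the summed level was at least 2782 CPM in all 14 mice.

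The libraries differed in a tilt towards GC-rich transcripts. This GC slope is the change in a library's log2 CPM, relative to the mean of all libraries, per 10 percentage points of transcript GC content. The lowest, median and highest slopes were -0.409, -0.0876 and 1.07 in the anti-IL4Ra mice, against -0.443, -0.201 and 0.374 in the isotype mice. Anti-IL4Ra mice 2, 6 and 8 had slopes of 1.07, 0.867 and 0.983, which places them above 0.75, a level that no isotype mouse reached. Libraries above 0.75 are called steep, and 10 of the 43 libraries were. Mean slopes were 0.261 ± 0.679 in the anti-IL4Ra mice and -0.129 ± 0.272 in the isotype mice (SD, n = 7 each). The difference of 0.389 did not exceed the spread between mice (exact permutation test, 2-sided, p = 0.174 over 3432 arrangements). Both groups overlapped in slope apart from the 3 steep mice.

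**Figure D1:**
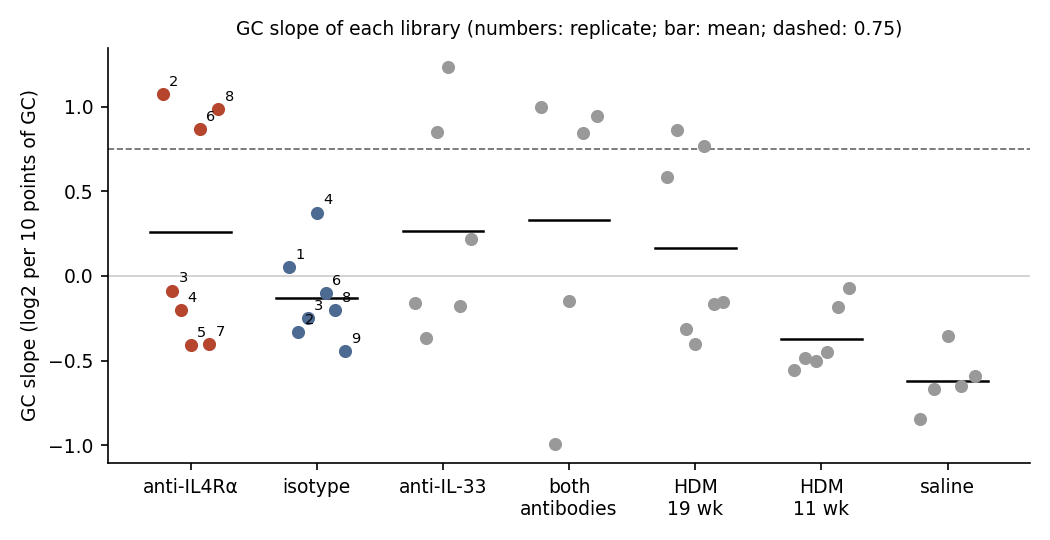
GC slope of each of the 43 libraries (vertical axis, log2 per 10 points of GC) by group, each point a library, the bar the group mean and the dashed line 0.75. Anti-IL4Ra mice 2, 6 and 8 lie above the line, the other 4 lie among the isotype mice, and no isotype mouse passes 0.374.

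No gene passed an adjusted p of 0.05 between anti-IL4Ra and isotype mice. edgeR's quasi-likelihood test with Benjamini-Hochberg adjustment called 0 of 15979 genes higher and 0 lower, both 0% of the genes tested, and the lowest adjusted p was 0.0826. At an unadjusted p under 0.05, 1975 genes were higher (12.4%) and 267 were lower (1.67%), where 799 of either direction would fall below that p if no gene differed. The other tools run made calls on the same counts: DESeq2 called 45 genes (39 higher, 6 lower) and limma voom with sample weights called 12 (10 higher, 2 lower). edgeR itself called 11, 5, 10, 13 and 9 genes when anti-IL4Ra mouse 3, 4, 5, 7 or 8 was left out, and 0 when mouse 2, mouse 6 or any isotype mouse was. The median log2 fold change over all genes was -0.02.

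The lean towards higher values followed GC content. Genes were ranked by GC content into 10 bins of 1582 or 1583 genes. In the lowest bin the median log2 fold change was -0.17 and 2.4% of genes were higher at an unadjusted p under 0.05. In the highest bin the median was 0.81 and 46.6% of genes were higher. With each library's GC slope entered as a covariate, the bins had medians between -0.04 and 0.05, 290 genes were higher (1.81%) and 364 lower (2.28%) at an unadjusted p, and again 0 genes were called by edgeR (lowest adjusted p 0.205). The slopes were computed from these same counts, so bin medians near 0 are no test of the covariate. With GC and length offsets 1332 genes were higher (8.34%) and 531 lower (3.32%), and 0 were called (lowest adjusted p 0.0576). Without the 10 steep libraries, which leaves 4 anti-IL4Ra mice and all 7 isotype mice, 458 genes were higher (2.79%) and 269 lower (1.64%) of 16414 tested, and 0 were called (lowest adjusted p 0.186). In that comparison the bins ran the other way, with a median of 0.10 in the lowest and -0.16 in the highest. Fold changes below are from the group means unless the covariate or the comparison without steep libraries is named.

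**Figure D2:**
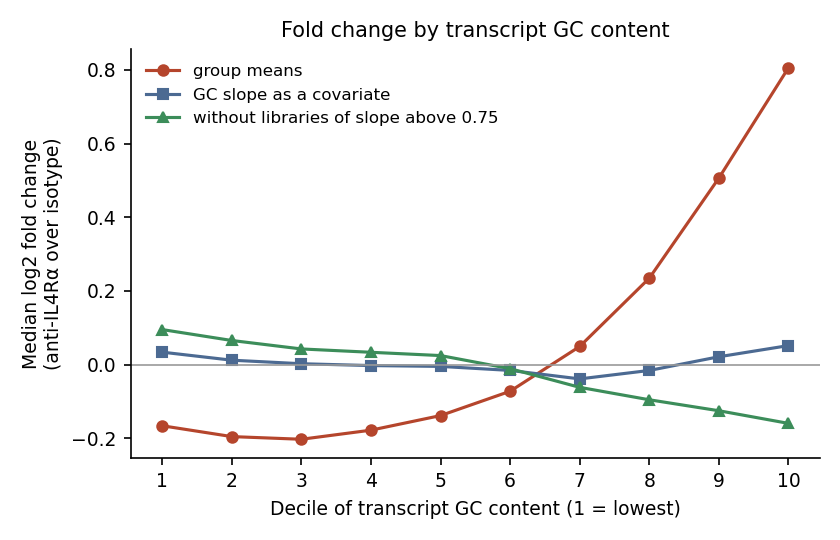
Median log2 fold change, anti-IL4Rα over isotype (vertical axis), in each of 10 bins of genes by transcript GC content (horizontal axis, 1 the lowest), from the group means, the covariate fit and the comparison without steep libraries. The group means climb to 0.81 in the highest bin, while the covariate, computed from the same counts, holds all bins between -0.04 and 0.05.

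The receptor, its ligands and its signalling chain showed no difference past the adjusted test. Il4ra (chromosome 7, 125552271 to 125579474 on mm10), which encodes the blocked chain, had a lowest, median and highest level of 146, 184 and 648.5 CPM in the anti-IL4Ra mice, against 128, 193 and 303 CPM in the isotype mice. The 3 steep mice were the 3 highest of the anti-IL4Ra group and the other 4 lay within the isotype range. The outer part of this gene carries human sequence in both groups, and its effect on the count was not tested. The log2 fold change was 0.48 ± 0.38 (adjusted p = 0.584, edgeR) and -0.13 ± 0.17 with the GC covariate. Il13, which drives mucus-cell change, was at 0.900, 2.58 and 3.30 CPM in the anti-IL4Ra mice, against 0.729, 1.59 and 4.03 CPM in the isotype mice. The anti-IL4Ra range lay within the isotype range, and the log2 fold change was 0.10 ± 0.45, with a 95% interval of -0.80 to 1.003. Il4 was counted 0 times in all 14 mice, in which the mouse gene carries human sequence. Of the 5 measured ligands and receptors none had an unadjusted p under 0.05. Il13ra2, the decoy receptor for IL-13, lay between 0.134 and 3.52 CPM in the anti-IL4Ra mice and between 1.35 and 4.21 CPM in the isotype mice (log2 fold change -0.55 ± 0.57). Of 10 signalling and feedback genes, Jak3 (1.03 ± 0.47) and Tyk2 (0.65 ± 0.28) were higher at an unadjusted p, and both were close to 0 with the covariate (0.01 and 0.10). Over all genes 12.4% were higher. Stat6 differed by -0.09 ± 0.13.

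Macrophage genes that IL-4 and IL-13 induce through STAT6 were described next. The promoters of Retnla, a secreted protein of alternatively activated macrophages, and Ccl17, a chemokine that attracts type 2 helper T cells, are shown because each holds 1 match to the STAT6 half-site pair in this window. The windows, from RefSeq on GRCm38.p6, run from 250 bases before to 50 bases after the start used in the promoter table and lie at chr16:48842359-48842658 and chr8:94810203-94810502, both on the plus strand. Capitals mark TTC, then 4 bases of any kind, then GAA, a motif that reads the same on both strands, which begins 145 bases before the start in Retnla and 154 bases before it in Ccl17. For Ccl17 that start lies inside the RefSeq gene record, which begins at 94809380, so the window is not at the record's outermost start. The motif occurs in 6.95% of the 32851 promoter windows of this length, and a match is a description of the letters only.
Retnla: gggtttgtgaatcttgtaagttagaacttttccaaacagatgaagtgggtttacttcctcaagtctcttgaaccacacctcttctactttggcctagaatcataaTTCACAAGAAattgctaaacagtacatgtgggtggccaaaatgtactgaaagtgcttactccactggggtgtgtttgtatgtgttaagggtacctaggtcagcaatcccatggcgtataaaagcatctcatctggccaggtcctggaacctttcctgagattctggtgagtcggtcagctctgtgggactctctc
Ccl17: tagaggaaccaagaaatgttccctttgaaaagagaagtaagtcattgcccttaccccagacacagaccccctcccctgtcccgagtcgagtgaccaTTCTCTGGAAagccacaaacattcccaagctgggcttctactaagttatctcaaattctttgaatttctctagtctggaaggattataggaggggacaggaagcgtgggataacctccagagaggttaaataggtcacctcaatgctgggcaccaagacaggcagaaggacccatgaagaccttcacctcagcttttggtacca

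Type 2 macrophage genes were neither uniformly lower nor uniformly higher in anti-IL4Ra mice. Retnla (chromosome 16, 48842609 to 48844461) was at 1203, 2006 and 5396 CPM in the anti-IL4Ra mice, against 682, 2024 and 5069 CPM in the isotype mice. The groups overlapped over most of their range, and the log2 fold change was -0.04 ± 0.39 (95% interval -0.83 to 0.75, adjusted p = 0.965, edgeR), and 0.35 without the steep libraries. Chil3, the chitinase-like protein Ym1, was at 7236, 12530 and 16280 CPM in the anti-IL4Ra mice and at 6067, 12550 and 16240 CPM in the isotype mice (log2 fold change 0.05 ± 0.30). Its medians were nearly equal. Arg1, the arginase of alternatively activated macrophages, was at 21.8, 120 and 837 CPM in the anti-IL4Ra mice, against 59.1, 114 and 720 CPM in the isotype mice (0.32 ± 0.68, and 1.01 without the steep libraries). Both groups held high and low mice: anti-IL4Ra mice 3, 4 and 7 and isotype mice 1, 4 and 8 had 278 CPM or more, and all others 119.5 CPM or less.

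Ccl17 was highest in anti-IL4Ra mouse 2. It was at 8.10, 9.85 and 45.2 CPM in the anti-IL4Ra mice, against 4.41, 7.37 and 10.02 CPM in the isotype mice (1.04 ± 0.45, adjusted p = 0.314, and 0.52 ± 0.40 with the GC covariate). F13a1, the coagulation factor XIII subunit of alternatively activated macrophages, was lower, at 5.75, 13.1 and 19.1 CPM in the anti-IL4Ra mice against 9.27, 19.6 and 33.5 CPM in the isotype mice, an unadjusted p of 0.011. Of the 20 genes of the list, Ccl17 was the 1 higher and F13a1 the 1 lower at an unadjusted p. Over all genes 12.4% were higher and 1.67% lower. The list's median log2 fold change was -0.12, beside -0.02 over all genes. In whole lung, fewer macrophages and less RNA per macrophage cannot be told apart.

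Of the chemokines that attract eosinophils, Ccl11 and Ccl24 were lowest in the 3 steep mice. Ccl11, or eotaxin-1 (chromosome 11, 82057832 to 82062955), was at 8.83, 27.8 and 64.4 CPM in the anti-IL4Ra mice, against 22.6, 35.7 and 67.0 CPM in the isotype mice. Steep mice 2, 6 and 8 had 16.0, 9.87 and 8.83 CPM, below every isotype mouse, and mice 3, 4, 5 and 7 had 27.8 to 64.4 CPM, within the isotype range. The log2 fold change was -0.44 ± 0.39 (95% interval -1.22 to 0.35, adjusted p = 0.619, edgeR), -0.41 with the GC covariate and 0.12 without the steep libraries. Among the steep libraries of other groups, the 2 with anti-IL-33 had 37.1 and 16.7 CPM, the 2 with 19 weeks of HDM and no antibody had 33.5 and 30.3 CPM, and the 3 with both antibodies had 3.70 to 7.36 CPM. All 5 mice with both antibodies, steep or not, lay between 2.29 and 7.36 CPM. Ccl24, or eotaxin-2, was at 0.183, 1.64 and 26.4 CPM in the anti-IL4Ra mice, against 1.15, 4.92 and 19.4 CPM in the isotype mice. Mice 2, 6 and 8 were again the lowest, with 0.400, 0.183 and 0.536 CPM, while mouse 4 was above and mouse 7 just below the highest isotype mouse. Its log2 fold change was -0.12 ± 0.82, and 0.66 without the steep libraries. The summed level of the 6 genes of the list did not single out the steep mice: mouse 2 had 170 CPM, the highest of the anti-IL4Ra group, and mice 6 and 8 had 69.7 and 61.7 CPM, against 77.25 to 213 CPM in the isotype mice. The part of the GC slope in these levels was not tested.

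Of the 6 measured eosinophil chemokine and receptor genes 0 were higher and 1 lower at an unadjusted p. Over all genes the shares were 12.4% and 1.67%. The 1 lower was Ccr3, the eotaxin receptor of eosinophils. It was at 0.366, 0.634 and 1.71 CPM in the anti-IL4Ra mice, against 1.002, 1.47 and 2.42 CPM in the isotype mice (log2 fold change -1.03 ± 0.37, unadjusted p = 0.0082, adjusted p = 0.308, edgeR). All anti-IL4Ra mice except mouse 4 lay below the lowest isotype mouse. The log2 fold change was -0.94 with the covariate (unadjusted p = 0.0144) and -0.72 without the steep libraries (unadjusted p = 0.0973). Granule genes of eosinophils gave little signal, with Epx, the eosinophil peroxidase, too low to test and Prg2, the major basic protein, at 2.78 to 8.48 CPM in the anti-IL4Ra mice and 4.50 to 7.40 CPM in the isotype mice. Siglecf, a receptor that eosinophils share with alveolar macrophages, was at 0.934, 5.51 and 9.74 CPM in the anti-IL4Ra mice, against 6.91, 9.70 and 12.2 CPM in the isotype mice (-0.80 ± 0.41, unadjusted p = 0.0552). Ear2, an eosinophil-associated ribonuclease that alveolar macrophages also express, was the 1 higher gene among the 8 tested on the eosinophil list at an unadjusted p (0.74, and 0.44 with the covariate), and Ccr3 the 1 lower. The summed level of that list had a median of 128.5 CPM in the anti-IL4Ra mice, against 102.6 CPM in the isotype mice, while the median fold change of its genes was -0.23. Il5, the growth factor of eosinophils, was at 0.0914 to 0.605 CPM in the anti-IL4Ra mice and at 0.230 to 0.663 CPM in the isotype mice (-0.17 ± 0.69).

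**Figure D3:**
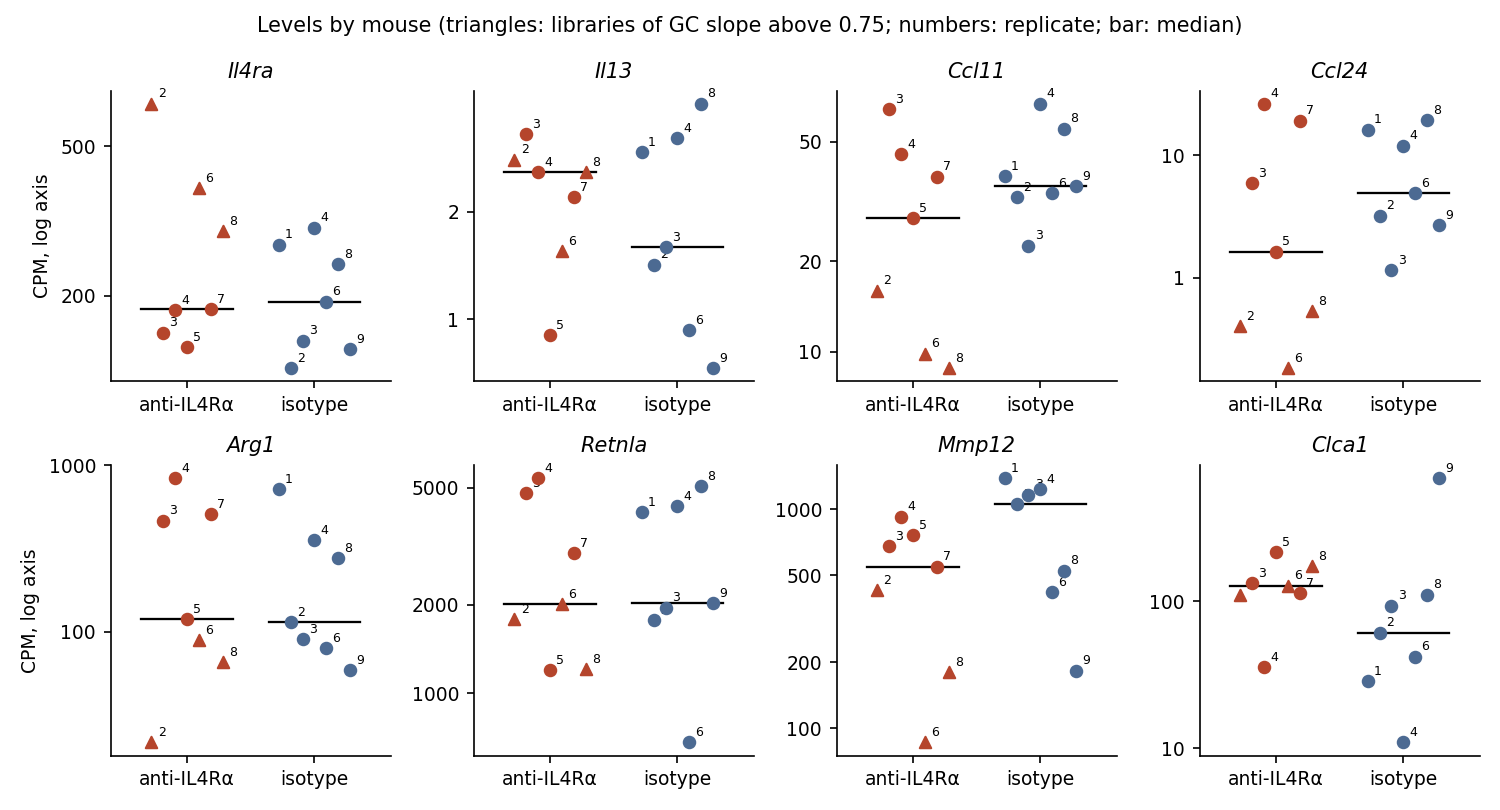
CPM per mouse (vertical axes, log scale) of the receptor gene and 7 type 2 genes in anti-IL4Rα and isotype mice, each point a library, triangles the steep libraries and bars the medians. The groups overlap in all 8 genes, and the 3 triangles are the lowest anti-IL4Rα mice for Ccl11 and Ccl24.

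No goblet cell or mucus gene was lower in anti-IL4Ra mice at an unadjusted p. Clca1, a secreted protein of goblet cells, was at 35.5, 128 and 216 CPM in the anti-IL4Ra mice, against 11.0, 61.2 and 688 CPM in the isotype mice. Isotype mouse 9 alone held the highest value, and 6 of the 7 anti-IL4Ra mice were above the isotype median. Its log2 fold change was -0.19 ± 0.81 (95% interval -1.82 to 1.44) and 1.16 without isotype mouse 9. Muc5ac, the inducible gel-forming mucin, was at 4.40, 9.02 and 17.8 CPM in the anti-IL4Ra mice and at 4.01, 10.1 and 19.6 CPM in the isotype mice (-0.01 ± 0.42). Of 16 goblet genes 4 were higher at an unadjusted p and none was lower, beside 12.4% higher and 1.67% lower over all genes: Agr2, a disulfide isomerase needed for mucin folding (1.44 ± 0.48), Spdef, the transcription factor of goblet cells (1.28 ± 0.46), Fcgbp, a mucus protein (1.07 ± 0.52), and Muc5b, the resident mucin (0.91 ± 0.41). With the GC covariate 0 of the 16 were, and the list median was 0.17 in place of 0.59. Without the steep libraries the median was -0.23.

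Airway and alveolar lists differed among themselves. Of 9 club cell genes 5 were higher at an unadjusted p, 0 with the covariate and 0 without the steep libraries, with medians of 0.81, 0.41 and -0.17. Over all genes the shares higher were 12.4%, 1.81% and 2.79%, and the shares lower were 1.67%, 2.28% and 1.64%. Scgb3a2, a secretoglobin of club cells, was at 18.6, 90.7 and 989 CPM in the anti-IL4Ra mice, against 14.1, 43.9 and 108 CPM in the isotype mice. Mouse 2 held the highest value, followed by steep mice 8 and 6. Of 11 motile cilia genes 2 were higher at an unadjusted p and 0 lower, 5 had a positive fold change, and the median was -0.01. The 2 were Foxj1, the regulator of motile cilia, and Tppp3. Foxj1 had a log2 fold change of 1.80 ± 0.60 from the group means, 0.44 with the covariate and -0.00 without the steep libraries. Of 9 alveolar type 1 cell genes 2 were higher, 1 lower and 3 positive, with a median of -0.11. Ager and Aqp5 were the 2 higher, at 1.08 and 1.49, and at 0.33 and 0.41 with the covariate, and Pdpn was the 1 lower, at -0.79 and -0.69. The transcripts of Foxj1, Ager and Aqp5 have GC contents of 61.4%, 59.4% and 59.8%, and that of Scgb3a2 has 43.6%. The summed club cell level was highest in mouse 2 at 23460 CPM, against 2782 to 7588 CPM in the isotype mice.

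Remodelling genes did not separate the groups. None of 20 extracellular matrix genes had an unadjusted p under 0.05 in either direction, from the group means or with the covariate. Over all genes 12.4% were higher and 1.67% lower from the group means, and 1.81% and 2.28% with the covariate. The list median was -0.06. Col3a1, a fibrillar collagen, was at 359, 1368 and 1792 CPM in the anti-IL4Ra mice, against 998, 1299 and 1575 CPM in the isotype mice (log2 fold change -0.00 ± 0.26). The 95% interval was -0.53 to 0.53, and mouse 2 alone lay below the isotype range. Mmp12, the macrophage elastase (chromosome 9, 7344397 to 7360461), was at 86.2, 547 and 925 CPM in the anti-IL4Ra mice, against 184, 1056 and 1388 CPM in the isotype mice. Isotype mice 1, 2, 3 and 4 were above every anti-IL4Ra mouse, and isotype mice 6, 8 and 9 were not. In log2 terms the fold change was -0.73 ± 0.49 (adjusted p = 0.514, edgeR), -0.66 ± 0.46 with the covariate and -0.22 without the steep libraries. Gpnmb, a glycoprotein of lipid-laden macrophages, was at 590, 1018 and 1378 CPM in the anti-IL4Ra mice, against 555, 1633 and 4672 CPM in the isotype mice (-1.002 ± 0.45, unadjusted p = 0.0332). Isotype mice 1, 2, 3 and 4 were above every anti-IL4Ra mouse.

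Among chemokines of neutrophils and monocytes, values lay in both directions. Cxcl5, an epithelial attractant of neutrophils, was at 3.47, 10.3 and 16.97 CPM in the anti-IL4Ra mice, against 7.85, 19.6 and 52.3 CPM in the isotype mice (log2 fold change -1.30 ± 0.44, unadjusted p = 0.00525, and -1.10 with the covariate). Cxcl2 was -1.07 ± 0.49 and -1.02. Of 12 measured genes of the type 17 and neutrophil-attracting list these 2 were lower at an unadjusted p and none was higher. Over all genes 1.67% were lower and 12.4% higher. With the covariate 2 of the list were lower and 1 higher. Its summed level had a median of 2865 CPM in the anti-IL4Ra mice, against 2305 CPM in the isotype mice. Of 11 neutrophil genes 0 had an unadjusted p under 0.05 in either direction. Ccl9, a macrophage chemokine, was at 20.7, 57.0 and 170 CPM in the anti-IL4Ra mice, against 62.7, 127 and 266 CPM in the isotype mice (-0.98 ± 0.41). Ccl6, of the same chemokine family, went the other way, at 1172, 1711 and 3535 CPM in the anti-IL4Ra mice against 701, 1012 and 1450 CPM in the isotype mice (0.85 ± 0.30, unadjusted p = 0.00698, and 0.65 with the covariate). Without the steep libraries Cxcl5, Cxcl2, Ccl9 and Ccl6 were -0.95, -0.56, -0.37 and 0.47. The adjusted p of these 4 genes lay between 0.308 and 0.324 (edgeR).

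The other lists of immune cells differed in how many genes passed an unadjusted p, beside 12.4% higher and 1.67% lower over all genes. Of 10 alveolar macrophage genes 3 were higher and 0 lower, 9 had a positive fold change, and the median was 0.64. With the covariate 1 was higher (median 0.42), and without the steep libraries 0 were (median 0.10). Of 12 monocyte and myeloid chemokine genes 3 were higher and 1 lower, and 1 and 1 with the covariate. T cell, NK cell, interferon response, dendritic cell and B cell lists had 0 genes in either direction, and so had the plasma cell list. Among mast cell genes 1 of 11 was lower, the tryptase Tpsab1, described below. In the list of immediate early genes, transcription factors that respond within minutes to stimulation and to handling of tissue, Egr3 (-0.87 ± 0.29) and Atf3 (-0.79 ± 0.31) were lower at an unadjusted p of 10 genes, and Nr4a1 joined them with the covariate. Npy, a neuropeptide in the list of nerve genes, was at 15.9, 19.8 and 25.9 CPM in the anti-IL4Ra mice, against 9.52, 37.7 and 110 CPM in the isotype mice (-1.18 ± 0.50). Its values were tightly grouped with anti-IL4Ra and spread widely with isotype.

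Red cell genes held the lowest p-values of the comparison and were high in single mice. The promoter of Alas2, which encodes the first enzyme of haem synthesis in red cell precursors, is shown because red cell genes stood highest and are known targets of the factor GATA1. Its RefSeq window on GRCm38.p6 lies at chrX:150547167-150547466 on the plus strand. Capitals mark TTATCT, the other strand of AGATAA, which begins 86 bases before the start. The search covered both strands for AGATAA and its variants with a first T, a last G or both, which can overlap, and found 1 match here. Of all 32851 windows 29.8% hold at least 1 of them.
Alas2: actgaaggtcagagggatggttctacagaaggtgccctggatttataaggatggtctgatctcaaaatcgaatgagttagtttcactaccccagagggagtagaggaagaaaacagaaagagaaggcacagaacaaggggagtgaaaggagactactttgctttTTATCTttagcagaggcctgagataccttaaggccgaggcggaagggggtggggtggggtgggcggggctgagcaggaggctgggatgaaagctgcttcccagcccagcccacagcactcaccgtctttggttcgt

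Alas2 (chromosome X, 150547417 to 150570622) was at 13.3, 40.0 and 3056 CPM in the anti-IL4Ra mice, against 12.7, 17.4 and 50.7 CPM in the isotype mice. Mice 2, 6 and 4 had 3056, 452 and 109 CPM, above every isotype mouse, and the other 4 anti-IL4Ra mice lay within the isotype range. On the log2 scale the difference was 4.58 ± 0.90 (adjusted p = 0.0826, edgeR), 2.25 ± 0.76 with the GC covariate and 0.83 without the steep libraries. Without anti-IL4Ra mouse 2 it was 2.29 (adjusted p = 0.986). Every other group had a higher Alas2 median than the isotype mice. The medians were 108.5 CPM with saline, 72.5 CPM with anti-IL-33 and 62.6 CPM with both antibodies. They were 29.1 CPM with HDM for 19 weeks and no antibody and 21.7 CPM at 11 weeks. Saline mice ran from 79.3 to 175 CPM, a range that held anti-IL4Ra mouse 4. Slc4a1, the band 3 anion exchanger of the red cell membrane, was at 0.787, 1.85 and 598 CPM in the anti-IL4Ra mice, against 0.724, 1.24 and 5.14 CPM in the isotype mice (5.62 ± 1.13, adjusted p = 0.0826), with the same 3 mice highest. It was 2.70 with the covariate, 1.59 without the steep libraries and 2.79 without mouse 2 (adjusted p = 0.986, edgeR). Ube2l6, a conjugating enzyme for the ubiquitin-like protein ISG15, was at 31.97, 46.0 and 1436 CPM in the anti-IL4Ra mice, against 21.6, 33.3 and 45.9 CPM in the isotype mice (2.98 ± 0.62, adjusted p = 0.0886). It was 1.46 with the covariate, 0.14 without the steep libraries and 1.08 without mouse 2. Mouse 2 alone held 1436 CPM and mouse 6 held 222 CPM. The β-globin gene Hbb-b1 was at 321, 991 and 49220 CPM in the anti-IL4Ra mice, against 197, 407 and 1469 CPM in the isotype mice. With saline it ran from 1999 to 4929 CPM. The globin genes Hbb-b1, Hbb-b2 and Hbb-bt are nearly identical, so their separate values are uncertain.

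The summed CPM of the 25 red cell genes in the table was 193900 in mouse 2, 29630 in mouse 6, 4653 in mouse 4 and 786 to 1984 in the other 4 anti-IL4Ra mice, against 844 to 2414 in the isotype mice. Of 22 tested genes of the list 14 were higher at an unadjusted p and 0 lower. With the GC covariate 8 were higher, and without the steep libraries 1 of 23 tested was higher and 1 lower. Over all genes 12.4% were higher and 1.67% lower from the group means, 1.81% higher with the covariate and 2.79% higher without the steep libraries. Transcription factor genes of red cell precursors were low, with Klf1 and Hemgn too low to test and Gata1 at 0.164 to 3.74 CPM in the anti-IL4Ra mice and 0.273 to 1.21 CPM in the isotype mice. Mouse 2 was also highest in the platelet list, with a sum of 148 CPM, against 13.8 to 21.8 CPM over the isotype mice. Its weight on the whole comparison was large: without it, 196 genes were higher and 168 lower at an unadjusted p.

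**Figure D4:**
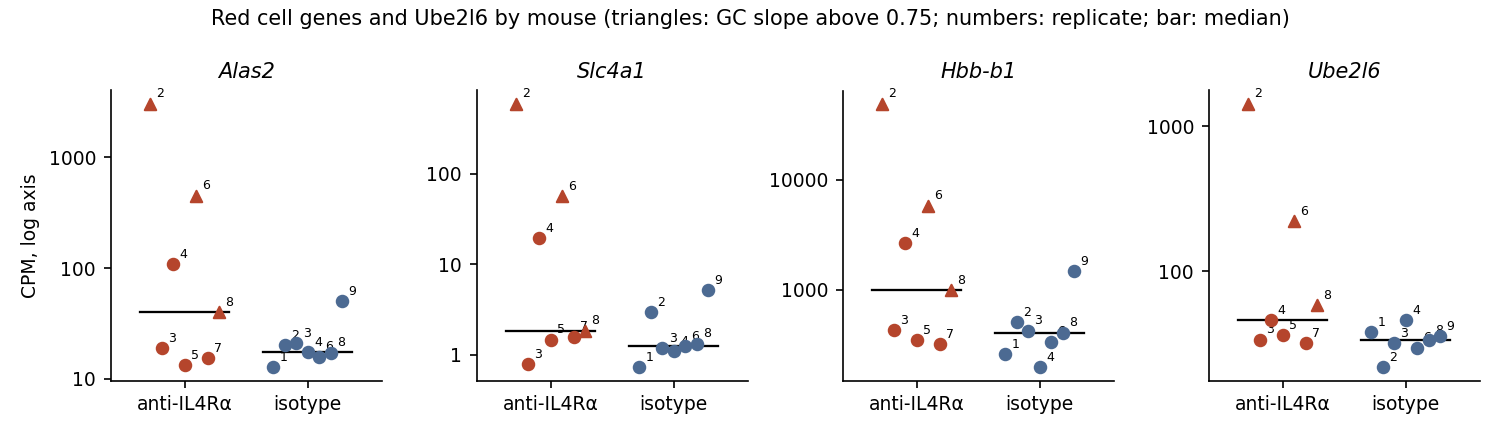
CPM per mouse (vertical axes, log scale) of 3 red cell genes and Ube2l6 in anti-IL4Rα and isotype mice, with triangles for steep libraries and bars for medians. Mouse 2 and mouse 6 stand above all isotype mice in each panel.

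Transcripts of the mitochondrial genome had a positive median fold change in anti-IL4Ra mice in all 3 comparisons, without passing the adjusted test. All 13 protein-coding genes of the mitochondrial genome, which encode subunits of the respiratory chain, had a positive log2 fold change, with a median of 0.79 from the group means and 0.82 with the GC covariate. Of the 13, 1 was higher at an unadjusted p from the group means, 2 with the covariate and 12 without the steep libraries, where the median was 1.06. The shares of all genes higher were 12.4%, 1.81% and 2.79%. The median transcript GC content of the 13 genes was 37.1%. In the lowest GC bin, 31.2% to 42.7%, 2.4% of genes were higher from the group means. These genes lie on 1 molecule and are transcribed together, so they are not separate observations. Their summed CPM was 28650, 56140 and 143400 in the anti-IL4Ra mice, against 27450, 38400 and 53450 in the isotype mice. Anti-IL4Ra mice 5, 2, 7 and 4 were above every isotype mouse, with 143400, 92330, 63500 and 56140 CPM, and mice 3, 6 and 8 lay within the isotype range. ND6, the gene on the other strand of that genome, was at 261, 422 and 1368 CPM in the anti-IL4Ra mice, against 150, 223 and 343 CPM in the isotype mice (1.31 ± 0.47, unadjusted p = 0.00845, adjusted p = 0.308, edgeR). COX1 differed least, by 0.59 ± 0.31. The highest sum belongs to mouse 5, which is not steep, and the parts of the GC slope and of depth in these values were not tested.

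In 9 genes the 7 anti-IL4Ra mice did not overlap the 7 isotype mice, with 3 of the 15979 higher (0.0188%) and 6 lower (0.0375%). There are 3432 arrangements of 7 and 7 libraries, so several of 15979 genes would separate in this way if none differed. The separation of these genes is therefore a description only. Car11, Pop4 and Prelid2 were the 3 higher. Pop4, a subunit of ribonuclease P, was at 18.6, 20.0 and 49.2 CPM in the anti-IL4Ra mice, against 13.8, 14.2 and 18.4 CPM in the isotype mice (0.66 ± 0.21, 0.61 with the covariate and 0.41 without the steep libraries). The lower ones included Cd300ld, an immune receptor of the CD300 family on myeloid cells, at 0.934, 8.10 and 14.6 CPM in the anti-IL4Ra mice against 17.1, 20.2 and 24.0 CPM in the isotype mice. Its log2 fold change was -1.36 ± 0.46 and -1.14 ± 0.31 with the covariate (adjusted p = 0.308 and 0.67, edgeR). Bmpr1b, a receptor for bone morphogenetic proteins (-0.94 ± 0.29), Gem, a small GTPase (-0.78 ± 0.30), and Stambpl1, a deubiquitinase (-0.35 ± 0.17), completed the named ones. Without the steep libraries Cd300ld, Bmpr1b, Gem and Stambpl1 were -0.82, -0.65, -0.40 and -0.29. Steep mouse 2 was the lowest of its group in all 4 of these lower genes.

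With the GC covariate the genes of lowest p were Ccn1, Abcc6 and Fut2. Ccn1, a matricellular protein that responds to injury and stretch (chromosome 3, 145646971 to 145649985), was at 42.3, 64.9 and 85.3 CPM in the anti-IL4Ra mice, against 67.8, 96.0 and 397 CPM in the isotype mice. Isotype mice 1 and 4 had 290 and 397 CPM and the other 5 had 67.8 to 102 CPM, so that the groups overlapped. The fold change (log2) was -1.32 ± 0.37 from the group means, -1.48 ± 0.30 with the covariate (unadjusted p = 1.59e-05, adjusted p = 0.205, edgeR) and -1.42 without the steep libraries. Zbtb16, the transcription factor PLZF, was at 8.46, 20.2 and 25.8 CPM in the anti-IL4Ra mice, against 4.33, 6.62 and 12.9 CPM in the isotype mice (1.27 ± 0.34, and 1.30 with the covariate). Mouse 7 was the 1 anti-IL4Ra mouse within the isotype range, with mouse 6 just above it. Adm, the vasodilator peptide adrenomedullin, was at 0.934, 3.93 and 7.75 CPM in the anti-IL4Ra mice, against 6.38, 9.23 and 10.1 CPM in the isotype mice (-1.27 ± 0.35, -1.21 with the covariate and -0.72 without the steep libraries). Col20a1, a minor collagen, was at 2.29, 3.75 and 7.07 CPM in the anti-IL4Ra mice, against 6.13, 7.56 and 9.13 CPM in the isotype mice (-0.83 ± 0.29, and -1.07 with the covariate). Anti-IL4Ra mouse 7 for Adm, and mice 2 and 8 for Col20a1, were the ones within the isotype range.

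Several of the lowest p-values belonged to neighbours on chromosome 7. Fut2, a fucosyltransferase that places blood group sugars on mucosal glycoproteins (45648591 to 45666394), was at 0.573, 0.865 and 1.601 CPM in the anti-IL4Ra mice, against 1.55, 5.17 and 6.91 CPM in the isotype mice. Isotype mouse 9, at 1.55 CPM, was the 1 isotype mouse within the anti-IL4Ra range. Its log2 fold change was -2.37 ± 0.54 (adjusted p = 0.0886, edgeR), -2.43 with the covariate and -2.73 without the steep libraries. Abcc6, an efflux transporter, was at 0, 0.0818 and 0.146 CPM in the anti-IL4Ra mice, against 0.0455, 1.45 and 2.36 CPM in the isotype mice (-3.74 ± 0.84, adjusted p = 0.0886). Again isotype mouse 9 was low, and isotype mouse 6 lay between with 0.363 CPM. Car11, a carbonic anhydrase-related protein, was at 3.02, 4.91 and 27.9 CPM in the anti-IL4Ra mice, against 1.15, 1.33 and 2.87 CPM in the isotype mice, and isotype mice 9 and 6 were its highest with 2.87 and 2.80 CPM. Grin2d, a glutamate receptor subunit, was at 3.24, 4.62 and 34.2 CPM in the anti-IL4Ra mice, against 1.69, 1.93 and 4.51 CPM in the isotype mice, with isotype mouse 9 highest. The differences of Car11 and Grin2d were 2.26 ± 0.52 and 2.09 ± 0.46 from the group means, 1.35 and 1.08 with the covariate, and 1.19 and 0.75 without the steep libraries. These genes also varied within other groups. With HDM for 19 weeks and no antibody, Fut2 ran from 1.37 to 4.57 CPM and Abcc6 from 0.203 to 2.02 CPM. Car11 there ran from 1.455 to 9.64 CPM and Grin2d from 2.91 to 10.27 CPM. At 11 weeks Fut2 ran from 1.18 to 5.005 CPM and Abcc6 from 0 to 3.19 CPM. With anti-IL-33 they ran from 0.937 to 3.46 CPM and from 0.0615 to 1.57 CPM. With both antibodies they ran from 1.39 to 2.53 CPM and from 0 to 1.08 CPM. With saline Fut2 ran from 0.0330 to 2.76 CPM, with a median of 0.117 CPM, and Abcc6 from 0 to 0.220 CPM. Car11 and Grin2d ran from 2.80 to 26.1 and from 2.13 to 18.8 CPM with both antibodies. With anti-IL-33 they ran from 1.61 to 9.165 and from 1.17 to 6.35 CPM. At 11 weeks they ran from 1.23 to 2.79 and from 2.185 to 4.21 CPM, and with saline from 1.205 to 2.18 and from 2.56 to 3.70 CPM.

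A window of 500000 bases to each side of the Fut2 start, chosen after these values were seen, held 48 tested genes. From the group means 15 were higher and 3 lower at an unadjusted p, with the GC covariate 7 and 5, and without the steep libraries 3 and 4. Over all genes the shares higher and lower were 12.4% and 1.67%, 1.81% and 2.28%, and 2.79% and 1.64%. The window is GC-rich, with a median transcript GC content of 57.6% against 50.8% over all genes. In the GC bin of 56.1% to 58.2%, 32% of genes were higher and 0.885% lower from the group means. Hsd17b14, Car11 and Grin2d were the 3 higher without the steep libraries, and Fut2, Ntn5, Ccdc114 and Abcc6 the 4 lower. Hsd17b14, Ntn5 and Ccdc114 were named after their values were seen, and genotypes of the mice were not analysed here.

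BC018473, an uncharacterised transcript on chromosome 11 (116752167 to 116757883), was present or nearly absent by mouse. It was at 6.67 to 57.8 CPM in anti-IL4Ra mice 2, 3, 5, 6 and 7, at 0.055 and 0.0975 CPM in anti-IL4Ra mice 4 and 8, and at 0.0459 to 0.237 CPM in all 7 isotype mice. In log2 terms the fold change was 7.56 ± 1.69 (adjusted p = 0.0886, edgeR), from 1951 counts over the anti-IL4Ra mice and 15 over the isotype mice. Other groups differed in how many mice were at 1 CPM or more: 3 of 7 mice with HDM for 19 weeks and no antibody, 3 of 6 at 11 weeks, 2 of 6 with anti-IL-33, 5 of 5 with both antibodies and 0 of 5 with saline. Tpsab1, a mast cell tryptase (chromosome 17, 25343245 to 25345562), was at 0.195 CPM or less in every anti-IL4Ra mouse, with 8 counts in all, and at 0, 1.75 and 13.5 CPM in the isotype mice, with 441 counts in all. Isotype mice 6, 8 and 9 lay at 0.207 CPM or less, near the anti-IL4Ra mice, so the difference rests on isotype mice 1 to 4. Its log2 fold change was -5.26 ± 1.31 (adjusted p = 0.182). Tpsab1 was at 1 CPM or more in 3 of 7 mice with HDM for 19 weeks and no antibody, at most 31.4 CPM. At 11 weeks it was so in 4 of 6 mice, and with anti-IL-33 in 1 of 6. No mouse with both antibodies or with saline reached 1 CPM. The related tryptase Tpsb2, whose reads may be shared with it, was at 0.393, 1.83 and 21.6 CPM in the anti-IL4Ra mice, against 0.726, 2.20 and 13.7 CPM in the isotype mice. None of the other 10 tested mast cell genes had an unadjusted p under 0.05.

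**Figure D5:**
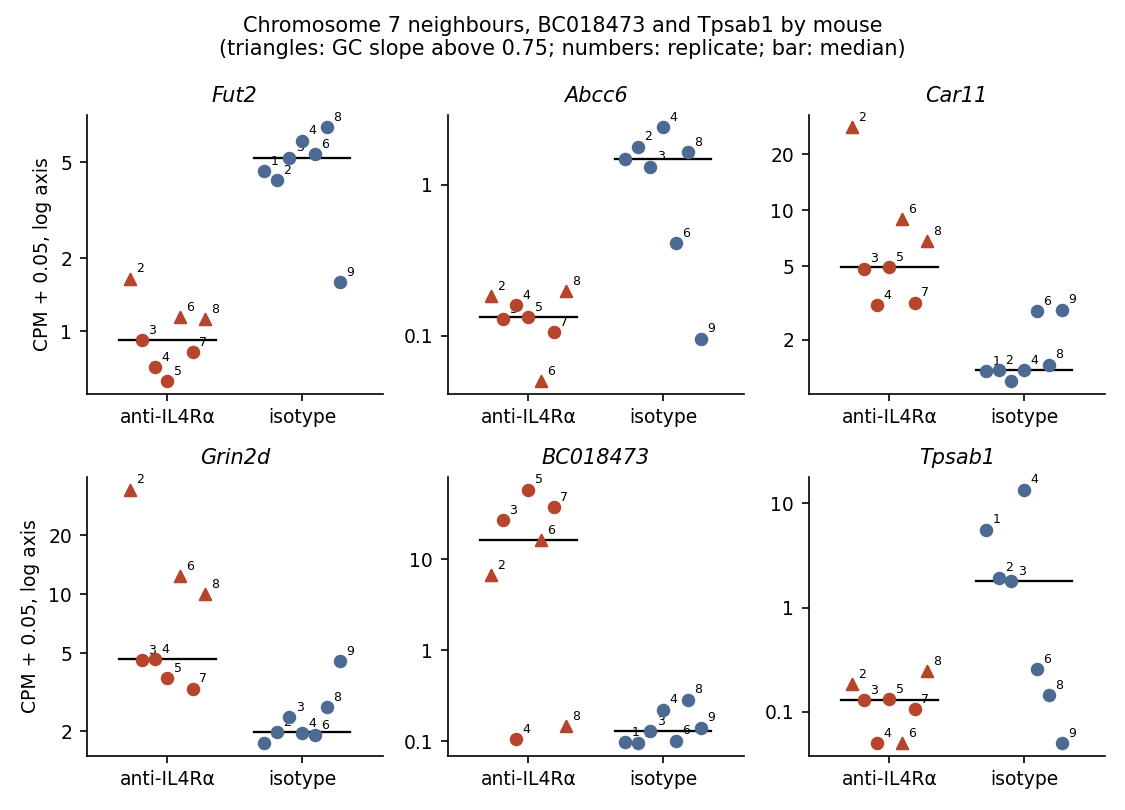
CPM + 0.05 per mouse (vertical axes, log scale) of 4 chromosome 7 neighbours, BC018473 and Tpsab1 in anti-IL4Rα and isotype mice, with triangles for steep libraries and bars for medians. Isotype mouse 9 lies with the anti-IL4Rα mice for Fut2 and Abcc6, and anti-IL4Rα mice 4 and 8 lie with the isotype mice for BC018473.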

How the data were processed

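RNA from whole lung was purified after TRIzol homogenisation, and stranded mRNA libraries were made from 500 ng with 12 PCR cycles and read in single runs of 33 cycles, per the labels' protocols. The authors deposited 1 table of expected counts, estimated reads per NCBI Gene ID, for 24475 genes and 43 libraries, and 76.8% of the nonzero values are whole. The genome build is mm10, per the submitters' processing notes. For the aligner, the counter and its strand setting, a name was not given in the sources used here. Reads of overlapping, antisense or near-identical genes may therefore be shared.

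Expected counts were rounded. Genes passed edgeR's filterByExpr by group (15979 genes), library sizes were scaled by TMM, and 7 groups of all 43 libraries were fitted with edgeR 4.0.16 in R 4.3.3 (robust quasi-likelihood test, Benjamini-Hochberg adjustment over all genes, adjusted p under 0.05), so that all groups share 1 estimate of spread. SE is the fold change divided by the square root of the F statistic. Transcript GC content was known for 15826 tested genes. Alternatives were the GC slope as a covariate, GC and length offsets, leaving out steep libraries or each mouse, DESeq2 1.42.0, limma 3.58.1 voom with sample weights, other size factors and filters, other references and a replicate block. Leaving out the gene ID with the most counts was added after seeing the data. Simulated counts with known changes were also fitted, with no outcome given here. The size of change that the 0 calls could miss is therefore not stated.

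Genes named are the 6 per direction of smallest p from the group means and with the covariate, 4 per direction among those whose groups do not overlap, fixed type 2 genes, and members of the gene lists. Immunoglobulin and T cell receptor segments and predicted genes were left out. The groups and lists were chosen with earlier results of these data known. No 2 of the 14 libraries held identical values. Groups were taken from the titles.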

Additional observations from a re-analysis of the deposited data

Results flagged for a closer look

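A mouse far from the other 6 of its group was found in 13 of 156 groups of values examined. There its gap to the nearest mouse was more than 0.568 of the group's range. Gaps and ranges of levels were taken on the log2 scale, and the levels below are printed as CPM. Among unrelated groups of normally distributed values about 1 in 20 would be flagged. These groups share libraries and include genes chosen from these data, so that rate is no test of the 13.

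Anti-IL4Ra mouse 2, a steep library with a TMM factor of 0.462, accounted for 8 of them. It was the highest of its group in Pop4 (49.25 CPM) and Ccl17 (45.24 CPM). It was also highest in the summed level of the eosinophil genes (265.2 CPM), plasma cell genes (8330 CPM), club cell genes (23460 CPM), platelet genes (148 CPM) and adipose genes (182 CPM), and lowest in that of mast cell genes (96.89 CPM). The part of its GC slope and scaling factor in these values was not tested. Anti-IL4Ra mouse 4 was lowest in Clca1 (35.53 CPM).

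Isotype mouse 9 was highest in Alas2 (50.67 CPM) and in the summed red cell genes (2414 CPM), and lowest in Fut2 (1.548 CPM). Isotype mouse 8 was highest in the summed squamous epithelium genes (200.7 CPM), a list in which anti-IL4Ra mouse 4 held 146 CPM.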

How the results depend on the processing

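edgeR called 0 genes from the group means, with the GC covariate, with GC and length offsets, without the steep libraries, with other size factors or filters, against HDM without antibody, and without the gene ID of most counts. DESeq2 called 45, voom with sample weights 12, the 14 libraries alone 1 (Fut2) and the pooled reference of isotype and HDM mice 14. Leaving out 1 mouse gave 0 to 13 calls, and 0 to 3 with the covariate, the 3 without isotype mouse 9. The replicate numbers shared by both groups did not pair the mice (correlations of deviations -0.289 to 0.147, own number best for none), and the replicate block gave 0 calls, with or without the covariate. The GC slope difference was 0.254 to 0.501 with 1 mouse left out. Depth limits Il5, Epx and Abcc6, which lie near or below 1 CPM.

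These log2 fold changes, none past the adjusted test from the group means, changed sign, and the cause was not tested. With the GC covariate Il4ra was -0.13, Il5 0.081, Clca1 0.35 and Muc5ac 0.27. Without the steep libraries Il4ra was -0.28, Il5 0.26, Ccl11 0.12, Ccl24 0.66, Retnla 0.35 and Muc5ac 0.027. With offsets Retnla was 0.030 and Clca1 0.023. With voom Il5 was 0.28, Ccl11 0.27, Ccl24 1.13, Retnla 0.68 and Clca1 0.15. Muc5ac was 0.030 with DESeq2, 0.029 with its size factors and 0.031 against the pooled reference, and Chil3 was -0.0066 with upper-quartile factors. Against HDM without antibody Il13 was -0.35, Ccl24 0.25, Clca1 0.17 and Muc5ac 0.070, and against the pooled reference Il13 was -0.14 and Ccl24 0.054. With the replicate block Ccl24 was 0.13, Arg1 -0.064, Retnla 0.16, Clca1 1.48 and Muc5ac 0.21. With the replicate block and the covariate Il4ra was -0.051, Il5 0.18, Ccl24 0.082, Arg1 -0.013, Retnla 0.18, Clca1 1.74 and Muc5ac 0.40. Without the steep libraries several summed lists changed sign, among them motile cilia (-0.098, against 0.69), platelet (-0.087, against 0.63) and dendritic cell genes (-0.18, against 0.34). Only the mesothelial list moved by more than its spread between mice (-0.0879, against 0.67).

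With 1 mouse left out, with or without the covariate, Il4ra ran from -0.22 to 0.60, Il13 from -0.045 to 0.34, Il5 from -0.36 to 0.23 and Ccl24 from -0.88 to 0.23. Arg1 ran from -0.22 to 0.89, Retnla from -0.30 to 0.16, Chil3 from -0.066 to 0.27, Clca1 from -0.40 to 1.47 and Muc5ac from -0.23 to 0.48.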

Other observations

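Il33, an epithelial alarmin upstream of type 2 cytokines, had a log2 fold change of -0.02 in anti-IL4Ra mice from the group means and 0.57 without the steep libraries (unadjusted p = 0.0136, edgeR). The gene for IL-33 carries human sequence in these mice, so its count may not measure the expressed transcript, which was not tested. Tslp, another alarmin, was at -0.09. Of 15 interferon response genes and 11 neutrophil genes none had an unadjusted p under 0.05. Of 18 ribosomal protein genes 5 were higher at an unadjusted p from the group means and 0 with the GC covariate, with medians of 0.64 and 0.13, beside 12.4% and 1.81% of all genes higher.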
